A study of Arabidopsis thaliana with 12 samples.

Results

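The WRKY transcription factor genes were taken as all nuclear protein-coding genes whose symbol in the gene table is WRKY followed by a number, which gave 67 of 27444 genes. WRKY proteins are a plant family of transcription factors that share a DNA-binding domain with the residues WRKY and bind W box sequences. They are best known for defence against pathogens, salicylic acid responses, leaf senescence and nutrient stress, and some act in pollen, ovules, seeds and flowering. DELLA proteins repress gibberellin responses. They contact DNA through transcription factors, and WRKY12, WRKY13, WRKY45 and WRKY75 are among the proteins reported to bind DELLA proteins. The data described here are the peaks of a tagged DELLA protein at the WRKY genes themselves.

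A peak was assigned to a gene where its summit, the position of its highest signal, lay inside the gene or within 1000 bp of it. The gene table gives no strand, so the sides of a gene are named by coordinate and not as upstream or downstream. Gene ends come from assembly TAIR10.1 and peaks from build TAIR10, and the assignment assumes that nuclear coordinates did not change between them.

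Chromatin immunoprecipitation with sequencing (ChIP-seq) used an antibody to GFP on Arabidopsis inflorescences, all in the Landsberg erecta (Ler) background. The 3 genotypes were non-transgenic Ler, pGAI:gai∆17-3xYPet (gai-YPet) and pGAI:gai∆17-3xYPet cuc2-1 (gai-YPet cuc2-1), with 2 independent biological replicates each and 1 peak list per ChIP library. The transgene encodes GAI without 17 residues, a form that resists gibberellin-triggered degradation, with a yellow fluorescent tag that the antibody recognises, and it is driven by the GAI promoter. CUC2, a NAC transcription factor of organ boundaries, is mutated in cuc2-1, and the gai-YPet cuc2-1 plants are called the mutant. Each replicate held whole inflorescences, so a peak cannot be placed in one cell type, and peak lists hold no expression values with which to check the tissue.

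The tagged lists held 7042 and 11289 peaks in gai-YPet, and 8193 and 3666 in the mutant, against 234 and 406 in Ler. The lists hold no read counts, and sequencing depth is therefore unknown. Each peak carries a fold enrichment computed by the authors. It was used here only to describe peaks within a list, as was a percentile, the rank of a peak by q-value within its own list, in which 100 is the strongest. A gene is said to be called in a genotype where both replicate lists held a peak assigned to it, leaving out peaks that overlapped a Ler peak.

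In gai-YPet inflorescences 20 of the 67 WRKY genes (29.9%) were called, where 18.1% of all nuclear protein-coding genes were. In gai-YPet cuc2-1 12 WRKY genes (17.9%) were called, where 10.2% of all genes were. All 12 were also called in gai-YPet, so 12 WRKY genes were called in both genotypes, beside 9.72% of all genes. No test of the family against other genes was made. The median gap to the nearest other protein-coding gene was 928 bp for the called and 443 bp for the uncalled members, against 191 bp over all genes. Median gene length was 2310 bp, 1821 bp and 2078 bp in the same order, and the part of these distances in the count was not tested. By the same rule 33 of 115 MYB genes (28.7%) and 14 of 81 NAC genes (17.3%) were called in gai-YPet. In gai-YPet cuc2-1 21 MYB genes (18.3%) and 7 NAC genes (8.64%) were called. The differences between families were not tested.

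By list, 20 WRKY genes had a peak in gai-YPet replicate 1 (29.9%, against 18.8% of all genes) and 25 in replicate 2 (37.3% against 31.9%). In gai-YPet cuc2-1, 19 had one in replicate 1 (28.4% against 20.8%) and 12 in replicate 2 (17.9% against 10.5%). No WRKY gene had a peak in either Ler list. The Ler lists touch so few genes, 0.051% and 0.215% of all, that 0 of 67 lies near their background, and a count of 0 allows a share of up to 4.48% for counting error alone. Of the 67 members, 12 had a peak in all 4 tagged lists, 6 in 3 lists, 3 in 2 lists and 4 in 1 list, and 42 had none.

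**Figure D1:**
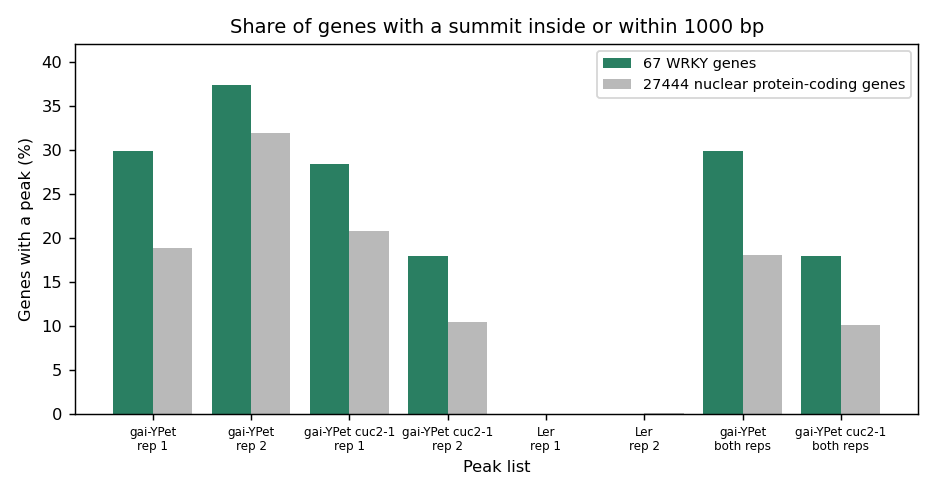
Percentage of genes with a peak summit inside the gene or within 1000 bp, for the 67 WRKY genes (green) and all 27444 nuclear protein-coding genes (grey), in each of the 6 peak lists and, in the last 2 pairs, in both replicate lists of a genotype with peaks on Ler peaks left out. The WRKY share is 37.3% in the longest list and 17.9% in the shortest, and 0 in both Ler lists.

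The peaks at WRKY genes ranged over nearly the whole strength of the lists, from percentile 0.926 to 99.4. There were 27 and 34 of them in the gai-YPet lists and 25 and 12 in the gai-YPet cuc2-1 lists. Their median percentiles were 49.9 and 63.9 in gai-YPet, and 55.9 and 45.8 in the mutant, where 50 is the middle of a list by construction. The number in the strongest 10% of a list was 4, 5, 4 and 3 in the same order. Summits inside the gene made up 37.0% and 41.2% of the WRKY peaks in gai-YPet, and 32.0% and 25.0% in the mutant. Over all peaks assigned to any gene, 43.6%, 49.9%, 45.9% and 44.0% had a summit inside any gene. The WRKY shares count only summits inside the WRKY gene itself, so they are lower in part by definition. For example, a WRKY15 peak with its summit inside the neighbour AT2G23321 counts as outside.

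The family is divided by domain structure into groups I, IIa to IIe and III. Group IId, whose proteins carry a calmodulin-binding domain, had a call in gai-YPet at 6 of its 7 genes, namely WRKY7, WRKY11, WRKY15, WRKY17, WRKY21 and WRKY39. Of these, WRKY7, WRKY15, WRKY17 and WRKY39 were also called in gai-YPet cuc2-1. WRKY74 was the member without a peak, its nearest tagged summit lying 3281 bp away. Group III had calls at 3 of 12 genes in both genotypes, and group I at 2 of 12 in both. Group IIe had 3 of 7 in gai-YPet and 0 of 7 in gai-YPet cuc2-1, group IIc 4 and 2 of 18, group IIb 1 of 8 in both, and group IIa 1 and 0 of 3. The shares of all genes called were 18.1% in gai-YPet and 10.2% in the mutant. Groups I (16.7% in both), IIb (12.5% in both) and IIc (22.2% and 11.1%) lay near this background. So did the 0 of 7 and 0 of 3 of groups IIe and IIa in the mutant. In gai-YPet these 2 groups stood at 42.9% and 33.3%. Group III stood at 25.0% in both genotypes, but in the mutant its calls at WRKY54 and WRKY55 depended on the same peak. Differences between groups were not tested, and the groups are small. The group counts also leave out 5 WRKY genes listed under another symbol. Of these, ABO3 and ZAP1 were called in both genotypes.

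**Figure D2:**
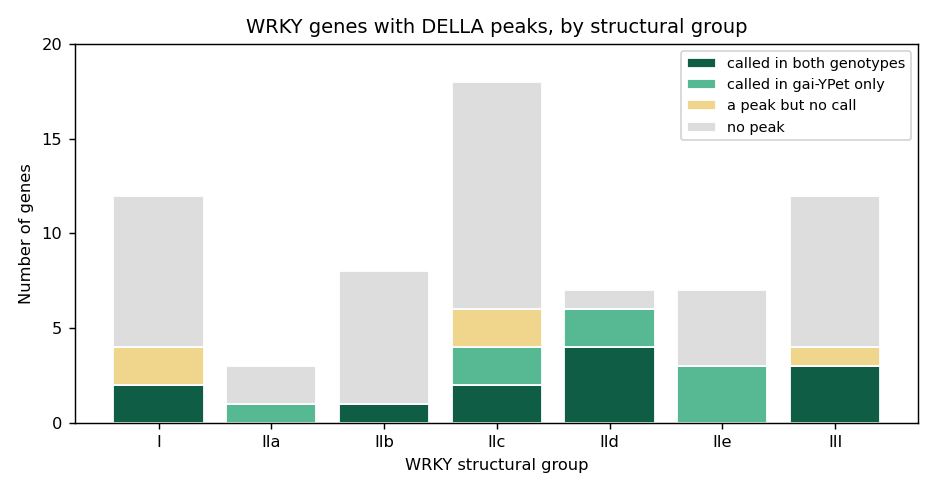
Number of WRKY genes in each structural group (x axis), stacked by whether the gene was called in both genotypes, called in gai-YPet only, had a peak in some tagged list without a call, or had no peak. Group IId has 4 genes called in both genotypes, 2 in gai-YPet only and 1 without a peak, whereas 12 of the 18 genes of group IIc have no peak.

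WRKY47, a group IIb gene, had the highest mean percentile over the 4 tagged lists. Its folds were 7.51 and 5.55 in gai-YPet, and 7.14 and 6.75 in the mutant, and its percentiles were 97.4, 97.2, 98.1 and 99.4. All 4 lists thus placed it in their strongest 10%. The peak lay on the lower-coordinate side of the gene, on chromosome 4 from 743904 to 744553 in gai-YPet replicate 1, and the 4 summits fell within 30 bp of each other, 639 to 669 bp from the gene. The other 7 measured genes of group IIb, among them WRKY6, which acts in senescence and phosphate supply, had no peak.

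WRKY7 and WRKY15 led group IId. WRKY7, which limits defence against Pseudomonas, had folds of 9.52 and 6.68 in gai-YPet, and 7.57 and 4.28 in the mutant. This peak lay inside the gene in all 4 lists (chromosome 4, 12572877 to 12573753 in gai-YPet replicate 1), with summits within 30 bp of each other. A second peak inside the gene, nearer its other end, had folds of 2.94, 2.95 and 3.23 and was missing from mutant replicate 2. WRKY15, a regulator of growth under salt and oxidative stress, had folds of 7.76 and 6.94 in gai-YPet, and 5.34 and 5.13 in the mutant. Its 4 summits also spanned 30 bp, 620 to 650 bp beyond the higher-coordinate end (chromosome 2, 9926774 to 9927211 in gai-YPet replicate 1). They lay nearer to the small neighbouring gene AT2G23321, at 474 to 504 bp, so the peak can be counted for either gene. Beyond the opposite end WRKY15 had a weaker peak with folds of 2.44, 3.03 and 2.58, again missing from mutant replicate 2.

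WRKY11 and WRKY17 are closely related repressors of basal resistance to bacteria. Their strongest peaks lay inside WRKY17 and beside WRKY11. WRKY17 had folds of 3.70 and 3.78 in gai-YPet, and 5.27 and 2.56 in the mutant, all inside the gene with summits within 30 bp of each other (chromosome 2, 10438043 to 10438337 in gai-YPet replicate 1). A weaker WRKY17 region on the higher-coordinate side, 995 to 1105 bp from the gene, fell within the 1000 bp limit in mutant replicate 2 alone. WRKY11 carried peaks on both sides, and in gai-YPet replicate 1 also a peak inside the gene with a fold of 2.57. On the lower-coordinate side the folds were 2.46 and 2.91 in gai-YPet, and 2.73 in mutant replicate 1, and on the higher-coordinate side 3.29, 3.77 and 2.50. Neither side had a peak in mutant replicate 2.

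WRKY39, which is needed for heat tolerance, had folds of 3.32 and 3.97 in gai-YPet, and 2.60 and 2.57 in the mutant. The summits lay just inside the higher-coordinate end of the gene (chromosome 3, 1268144 to 1268456 in gai-YPet replicate 1). WRKY21 had folds of 3.49 and 2.93 in gai-YPet, and a weak peak of 1.90 in mutant replicate 1 at percentile 8.45.

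**Figure D3:**
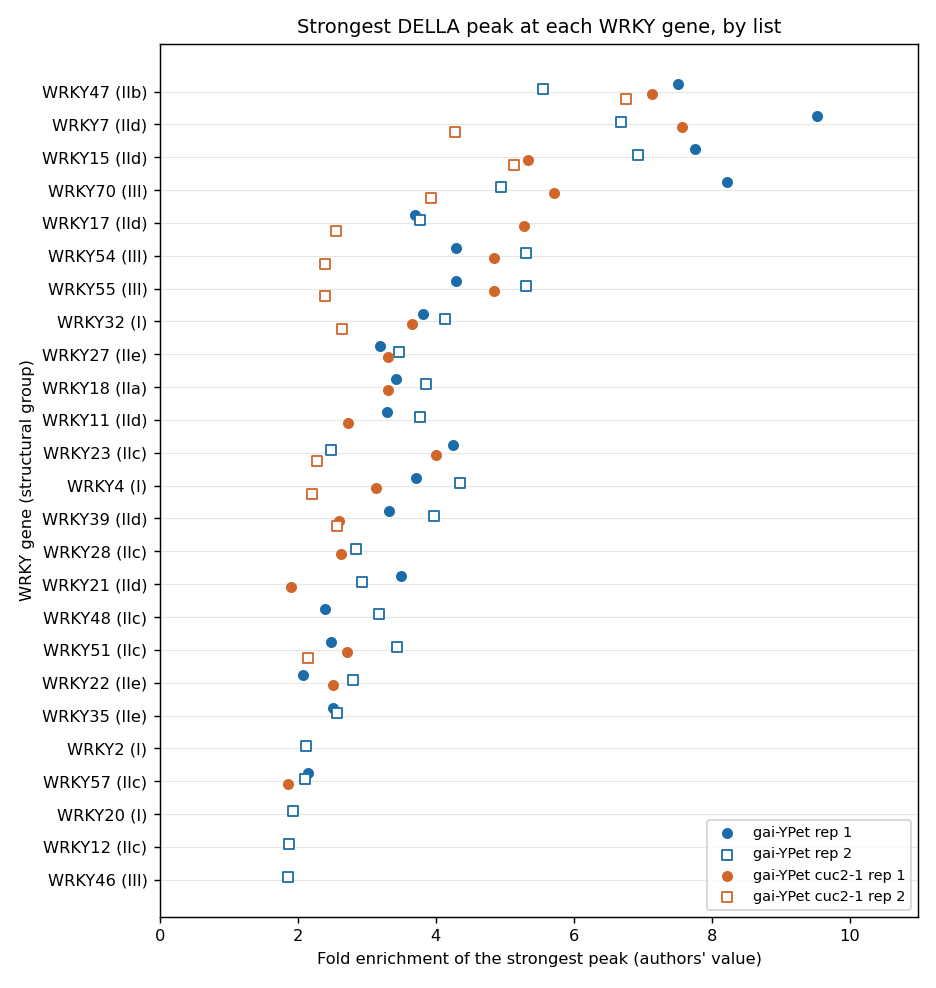
Authors' fold enrichment (x axis) of the strongest assigned peak at each of the 25 WRKY genes with a peak in any tagged list. Genes are ordered from top to bottom by mean within-list percentile. The mean covers only the lists that held a peak, so a missing peak does not lower the rank. Blue marks are gai-YPet, orange marks gai-YPet cuc2-1, circles replicate 1 and open squares replicate 2. WRKY47, WRKY7, WRKY15 and WRKY70 reach folds of 7.51 to 9.52 in gai-YPet replicate 1, and genes seen in gai-YPet replicate 2 alone lie between 1.85 and 2.12.

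Group III held the senescence and salicylic acid regulators WRKY54, WRKY55 and WRKY70. WRKY70, which favours salicylic acid over jasmonate responses, had folds of 8.23 and 4.95 in gai-YPet, and 5.72 and 3.93 in the mutant. The 4 summits spanned 31 bp and lay 403 to 434 bp from the lower-coordinate end (chromosome 3, 20908091 to 20908544 in gai-YPet replicate 1). AT3G56390 lies on the other side of this peak, 580 to 611 bp away, so WRKY70 was the nearer gene. A peak inside WRKY70 appeared in gai-YPet replicate 2 and mutant replicate 1, with folds of 3.10 and 2.97.

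WRKY54 acts together with WRKY70 in delaying senescence and is the neighbour of WRKY55, which promotes it. A peak between WRKY54 and WRKY55 had folds of 4.29 and 5.31 in gai-YPet, and 4.85 and 2.39 in the mutant (chromosome 2, 17000040 to 17000402 in gai-YPet replicate 1). It was counted for both genes, which are therefore not independent calls. Its summits lay 145 to 189 bp from WRKY54 and 731 to 775 bp from WRKY55. WRKY55 also had a peak of its own inside the gene, with folds of 2.39 and 3.02 in gai-YPet, and 2.44 in mutant replicate 1.

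The remaining members of group III had no call in either genotype, where 18.1% and 10.2% of all genes had one. WRKY53, a promoter of senescence, had no peak, with its nearest tagged summit 2120 bp away. WRKY46, which acts with WRKY54 and WRKY70 in brassinosteroid-regulated growth, had a peak in gai-YPet replicate 2 alone, at a fold of 1.85 and percentile 7.93.

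In group I, WRKY4 and WRKY32 were called in both genotypes. WRKY4, a gene of resistance to necrotrophic fungi, had folds of 3.71 and 4.36 in gai-YPet, and 3.13 and 2.21 in the mutant. Its summits lay within 82 bp of each other at the lower-coordinate end of the gene (chromosome 1, 4775997 to 4776517 in gai-YPet replicate 1). WRKY32, which acts with HY5 in seedling light responses, had folds of 3.81 and 4.13 in gai-YPet, and 3.65 and 2.65 in the mutant. That peak lay in the space shared with AT4G30940 (chromosome 4, 15054127 to 15054710 in gai-YPet replicate 1), 365 to 427 bp from WRKY32 and 339 to 401 bp from its neighbour.

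WRKY33, the regulator of camalexin synthesis and resistance to Botrytis, had no tagged summit nearer than 16967 bp. WRKY2 and WRKY34 are group I genes of pollen development, and WRKY2 also acts in the division of the zygote. Within 1000 bp, WRKY2 had a peak in gai-YPet replicate 2 alone, at a fold of 2.12 and percentile 26.5. With 3000 bp to each side, WRKY2 was called in both genotypes. WRKY34 had no peak within 1000 bp. WRKY10, known as MINI3 and acting in endosperm growth and seed size, had none either.

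Group IIc included the members with reported roles beside DELLA proteins. WRKY45 and WRKY75, which act in phosphate uptake and senescence, had no peak, and their nearest tagged summits lay 4182 bp and 3606 bp away. WRKY13, a flowering regulator, had none within 1000 bp, with the nearest at 1675 bp, and WRKY12, its counterpart in flowering, had a peak in gai-YPet replicate 2 alone, at a fold of 1.87 and percentile 11.7. WRKY71, which promotes flowering and shoot branching, had none. Thus 0 of the 4 genes WRKY12, WRKY13, WRKY45 and WRKY75 had a call in either genotype. At 18.1% and 10.2% of all genes called, such a count lies near the background. With 3000 bp to each side, WRKY13 was called in both genotypes and WRKY12 in gai-YPet.

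WRKY28, which is expressed in ovule cells around the megaspore mother cell, had a peak with folds of 2.84 in gai-YPet replicate 2 and 2.62 in mutant replicate 1. The 2 summits were 7 bp apart, but no genotype had the peak in both replicates. WRKY51, which with WRKY50 represses jasmonate responses, had folds of 2.47 and 3.44 in gai-YPet, and 2.72 and 2.15 in the mutant (chromosome 5, 25907852 to 25908154 in gai-YPet replicate 1). Its percentiles were 14.2 and 70.0 in gai-YPet, and 46.9 and 10.3 in the mutant, so its rank differed between replicates of the same genotype. WRKY50 had no peak.

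WRKY23, an auxin-induced gene that guides auxin transport, was called in both genotypes from peaks at different places. In gai-YPet replicate 1 a peak with a fold of 4.25 lay 984 bp from the gene (chromosome 2, 19403636 to 19404042), and gai-YPet cuc2-1 had it with folds of 4.01 and 2.27 at 997 bp and 978 bp. In gai-YPet replicate 2 the same region had a fold of 3.48, but its summit lay 1027 bp away, just past the limit, and the call rested on another peak inside the gene with a fold of 2.48. The region lay nearer to AT2G47250 than to WRKY23. Where overlapping peaks in both replicates were required, WRKY23 lost its call in gai-YPet.

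WRKY57, a drought and senescence gene, had weak peaks at its higher-coordinate end, with folds of 2.14 and 2.09 in gai-YPet, and 1.86 in mutant replicate 1. WRKY48, a repressor of basal defence, had folds of 2.39 and 3.17 in gai-YPet.

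WRKY18, WRKY40 and WRKY60 make up group IIa, and their proteins work together in pathogen responses. WRKY18 had folds of 3.42 and 3.86 in gai-YPet, and 3.30 in mutant replicate 1, with summits within 14 bp of each other at the lower-coordinate end of the gene. WRKY40 and WRKY60 had no peak, with the nearest tagged summits at 2313 bp and 23074 bp, and WRKY40 was called in gai-YPet with 3000 bp to each side. In group IIe, WRKY27, a gene of bacterial wilt, had folds of 3.18 and 3.47 in gai-YPet, and 3.30 in mutant replicate 1. WRKY35 had folds of 2.50 and 2.57 in gai-YPet. WRKY22 and WRKY29 act downstream of flagellin perception. WRKY22 had folds of 2.07 and 2.79 in gai-YPet, and 2.51 in mutant replicate 1 inside the gene, and WRKY29 had no peak.

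A region just outside the 1000 bp limit, 1092 to 1120 bp from WRKY22, was not assigned to it. Its folds were 10.6 and 8.21 in gai-YPet, and 8.80 and 7.99 in the mutant, at percentiles of 99.3 to 99.6, higher than at any peak assigned to a WRKY gene in the same list, and WRKY22 was the nearest protein-coding gene. The untagged control had a peak at the same place, in Ler replicate 2, with a fold of 3.19 (chromosome 4, 525221 to 525485). Other summits just inside the limit were those of WRKY12 at 945 bp and WRKY57 at 999 bp, with folds of 1.87 and 2.20. A second WRKY17 region lay on both sides of the limit: its summit was at 995 bp in mutant replicate 2, with a fold of 1.82, and at 1049, 1075 and 1105 bp in the other 3 tagged lists, with folds of 2.90, 3.28 and 3.37. Just outside lay summits of WRKY58 at 1046 to 1062 bp, in 3 lists with folds of 2.48 to 3.07, and of WRKY15 at 1076 to 1123 bp, in 3 lists with folds of 3.00 to 3.27. WRKY49 had summits at 1091 and 1111 bp, with folds of 2.55 and 2.77, and WRKY35 a further one at 1089 bp, with a fold of 2.19.

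**Figure D4:**
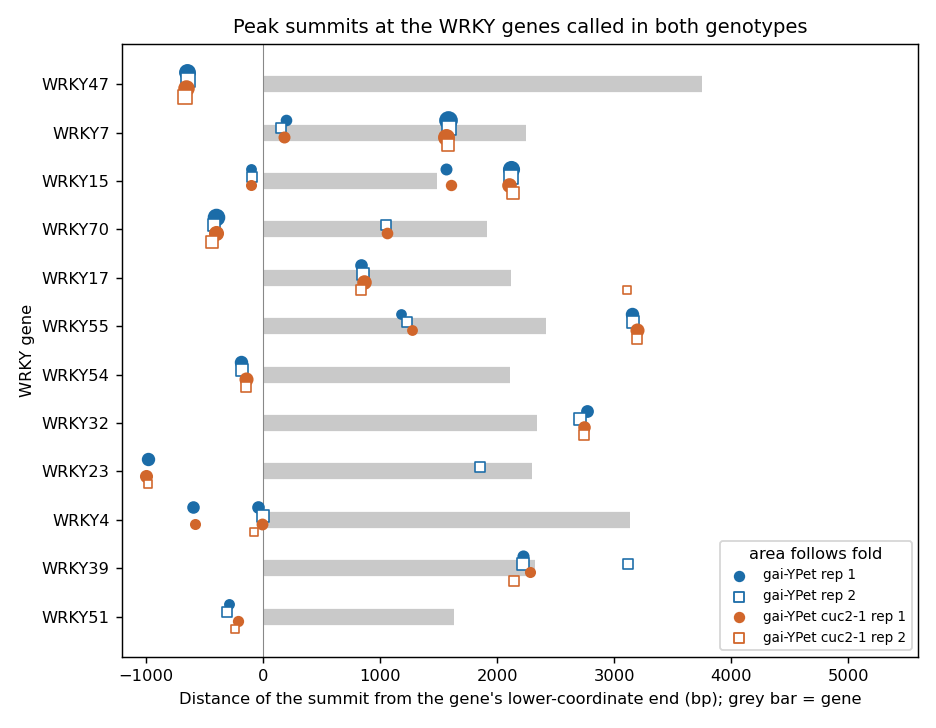
Summits of all peaks assigned to the 12 WRKY genes called in both genotypes, as distance in bp from the gene's lower-coordinate end (x axis); grey bars are the genes, colours and marker shapes give genotype and replicate, and marker area grows with the authors' fold. The summits of the strongest peaks of WRKY47, WRKY7, WRKY15 and WRKY17 coincide within 30 bp across the 4 lists, the last 3 genes have further, weaker peaks elsewhere, and WRKY23 has a summit inside the gene in gai-YPet replicate 2 and about 1000 bp outside it in the other lists.

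Summit positions repeated closely between lists at most WRKY genes with a peak in all 4 tagged lists. Over the 12 WRKY genes with a peak in all 4 tagged lists, the strongest peaks had summits within a median of 44 bp, against 52 bp over all 2676 such genes. The span was at most 100 bp in 10 of the 12 genes (83.3%) and in 78.7% of all such genes. WRKY54 and WRKY55 enter these values with the same peak, whose span is 44 bp, so they are not independent entries. The exceptions among the 12 were WRKY39, with 137 bp, and WRKY23, with 2848 bp. Genes with a peak in fewer lists do not enter these values. Where 3 lists held a peak, the span ran from 14 bp at WRKY18 to 3046 bp at WRKY11.

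Comparing gai-YPet with gai-YPet cuc2-1 addresses whether peaks depend on CUC2. Of the 20 WRKY genes called in gai-YPet, 12 were called in the mutant too, and 6 more, WRKY11, WRKY18, WRKY21, WRKY22, WRKY27 and WRKY57, had a peak in mutant replicate 1 and none in replicate 2, the shortest tagged list. WRKY35 and WRKY48 had no peak in either mutant list, 2 of 20 genes, where 8.13% of all genes called in gai-YPet had none. Their gai-YPet percentiles were 19.2 and 45.8 for WRKY35, and 21.4 and 63.9 for WRKY48. Both thus ranked low in replicate 1. No WRKY gene was called in the mutant alone. The mean number of WRKY genes with a peak per list was higher by 7 in gai-YPet, from 20 and 25 against 19 and 12 (exact permutation test over the 4 lists, two-sided, p = 0.333, the smallest that 2 against 2 lists can give). With the lists reduced to equal length the difference was 2.5 genes. Without mutant replicate 2, a call in the mutant needed a peak in replicate 1 alone. The count was then 19 (28.4%), which is the count of that list, and the share of all genes moved with it, from 10.2% to 20.8%.

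A list of 24 genes that act with WRKY proteins was described in the same way. It held kinases of the cascade that phosphorylates WRKY proteins, their VQ partner proteins, immune receptors, seed size genes and genes of salicylic acid and defence. It also held TTG2 and RRS1, 2 WRKY genes listed under another symbol, and it shares WRKY10 with the members. Of the 24, 3 (12.5%) were called in gai-YPet and 0 of 24 in gai-YPet cuc2-1, where a count of 0 allows up to 12.5%, beside 18.1% and 10.2% of all genes. MKK4, a kinase upstream of MPK3 and MPK6, had folds of 4.02 and 2.25 in gai-YPet, and 2.42 in mutant replicate 1. SIB2, a VQ protein that binds WRKY33, had 3.07 and 3.21, and 3.07 in mutant replicate 1. EDS1, a regulator of immunity, had 2.21 and 1.74, and 2.01 in mutant replicate 1. The MAP kinase genes MPK4 and MPK6, the receptor gene NPR1 and the synthesis gene ICS1, both of the salicylic acid pathway, and the defence gene PR1 had no peak in any tagged list.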

How the data were processed

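The 6 peak lists, 1 per ChIP library, are the authors' deposited files; each replicate has its own peak calls. Build TAIR10 and the tools Bowtie2, cutadapt, MACS2, SAMtools and bedtools come from the submitters' processing notes, without versions or settings. Each peak has a deposited score, fold enrichment ratio, and −log10 p-value and q-value. The score equals 10 times the −log10 q, truncated, in every line of the 6 lists. In the replicate 2 lists the authors' deposited fold and −log10 values had lost their decimal marks, and 5 decimals were restored, after which that relation holds.

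Samples were grouped by source name. Gene symbols and ends were read from the RefSeq gene table (assembly TAIR10.1), and its coordinates are left out of the text. A percentile is 100 times the share of the list at or below a peak by −log10 q, with ranks centred by 0.5. The strongest peak of a gene is the one with the highest −log10 q. Overlap meant at least 1 bp. Structural groups follow the usual classification of the family, entered by hand and not computed from sequence. The text names the 12 genes called in both genotypes, those called in 1 genotype without a peak in the other, a fixed list of WRKY genes of development, defence and senescence, and members by structural group. WRKY6, WRKY10, WRKY29, WRKY46, WRKY49, WRKY50, WRKY58 and WRKY74 were named after their values were seen. The members and lists were chosen with earlier results of these data known. Strand and sequence were not used here, so the planned motif counts were not made.

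Gene assignment was compared with bedtools 2.31.1, and all 29307 peak and gene pairs at 1000 bp were the same. In simulated gai-YPet lists with 400 planted genes, all 173 genes planted within reach in both lists were called. The planted summits carried no noise and reach was set by the same 1000 bp rule. The outcome therefore checks the code and not how well calls work in the real lists. Alternatives were other windows, control peaks kept, the 50% of each list with the highest −log10 q, equal list lengths, overlapping replicate peaks, the nearest gene alone and each list left out. The software was Python 3.11.15 with pandas 2.3.3, numpy 2.4.6 and matplotlib 3.10.9.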

Additional observations from a re-analysis of the deposited data

How the results depend on the processing

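In all 41 alternative values of the 3 counts (WRKY genes called in gai-YPet, in gai-YPet cuc2-1 and in both), the WRKY share was above the share of all genes, in some by little. The 41 values reuse the same peaks and the 3 counts overlap. They are therefore not independent, and their tally is no measure of support. With summits inside the gene alone the counts were 8, 3 and 3 (11.9%, 4.48% and 4.48%, beside 6.21%, 3.41% and 3.06% of all genes), so the last 2 lay near the background. With the stronger 50% of each list they were 12, 6 and 6, beside 10.3%, 5.56% and 5.33% of all genes. With the top 10% of each list, chosen after seeing the data, they were 4, 3 and 3, beside 2.12%, 1.17% and 1.12%. With 3000 bp to each side 20 genes were called in gai-YPet cuc2-1 and 20 in both, beside 18.1% and 17.6%, and with lists of equal length 13 in gai-YPet, beside 9.6%. Fewer or more peaks or positions enter by construction in each of these. Leaving out each list in turn gave 20 to 25 genes in gai-YPet, 12 to 19 in gai-YPet cuc2-1 and 12 to 18 in both. With 1 list left in a genotype, a call needed a peak in that list alone, so its count repeats that of the list. The difference per list was 3.5 to 10.5 genes, without a test where 1 list was left in a genotype. Keeping peaks on Ler peaks, or leaving out a Ler list, could change no WRKY call, because no peak assigned to a WRKY gene overlapped a Ler peak. With genotype exchanged only within a replicate number (replicate block), the difference of 7 genes had p = 0.5 in an exact permutation test, the smallest possible, and nothing in the labels says that equal numbers share a batch. Depth is unknown, so an absent peak does not show that the protein was absent.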

Other observations

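The gene table lists 5 genes with a WRKY number among their synonyms under another symbol, so the rule did not take them. ABO3, whose synonym is WRKY63, a gene of abscisic acid responses, had folds of 11.97 and 8.78 in gai-YPet, and 7.62 and 5.30 in the mutant. These are above the fold of every member in the same list except in mutant replicate 2, where WRKY47 had 6.75. ZAP1, whose synonym is WRKY1, had 4.58 and 4.78 in gai-YPet, and 5.06 and 1.91 in the mutant. TTG2 (WRKY44), a gene of trichomes and the seed coat, TTR1 (WRKY16) and the immune receptor RRS1 (WRKY52) had no peak in any tagged list.

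Several WRKY genes carried more than 1 assigned peak, namely 6 and 9 genes in the gai-YPet lists and 6 and 1 in the gai-YPet cuc2-1 lists. Of the WRKY peaks, 8, 7, 8 and 5 in the same order were also within 1000 bp of another protein-coding gene. When a peak counted for the nearest gene alone, WRKY23 and WRKY32 lost their call in gai-YPet, and WRKY15, WRKY23, WRKY32 and WRKY55 lost it in gai-YPet cuc2-1.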
